A study of Mus musculus with 35 samples.

Results

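The expression of 10 genes of leukocyte adhesion was followed in single macrophages. These were the β2 integrin chains Itgal, Itgam, Itgax and Itgb2, the alpha chains Itga4, Itga6 and Itgav, the beta chains Itgb1 and Itgb5, and Fermt3, which encodes the integrin adaptor kindlin-3. They were chosen by name, and each symbol was found once in each of the 3 count tables, among 32285 genes in the lactate and technique tables and 35624 gene symbols in the AZD3965 table. All 10 passed the minimum of 10 counts over both groups in each of the 4 comparisons made.

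The 35 libraries each came from 1 peritoneal macrophage of male C57BL/6 mice aged 6 months, prepared by SMART-seq2, which reads along the whole transcript and counts no molecular identifiers. Cells were cultured after non-adherent cells had been washed away. The lactate experiment held 8 cells kept in 10 mM lactate for 72 h and 8 untreated controls, and all 16 underwent scMeT-seq, in which a nano-capillary drew off a little cytoplasm for metabolomics before lysis. The AZD3965 experiment held 5 scMeT-seq cells kept for 72 h in 10 mM lactate with 300 nM AZD3965, an inhibitor of the monocarboxylate carrier MCT1, and 5 kept in lactate alone. In the technique comparison, 4 lactate-treated cells underwent scMeT-seq, 3 lactate-treated cells were lysed whole and 2 untreated control cells were lysed whole. The animal and culture of a cell are not stated, so a group is 1 sample here. Values are therefore given cell by cell, without tests, and the differences lack a check by replicates.

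Integrins are heterodimers of an alpha and a beta chain that bind matrix proteins, complement fragments or receptors on other cells. The β2 chain pairs with αL (LFA-1), αM (Mac-1, complement receptor 3), αX (complement receptor 4) or αD, is restricted to leukocytes, and needs kindlin-3 and talin on its cytoplasmic tail to become active. The β1 chain is made by nearly every cell type and pairs with α4 (VLA-4), α6 (VLA-6, a laminin receptor) and αv, while αv with β5 binds vitronectin and takes part in the uptake of apoptotic cells. Itgam and a high level of Itga6 are known features of resident peritoneal macrophages, and Itgax is commonly used as a marker of dendritic cells and of some activated macrophages.

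Library totals ran from 269393 to 459859 counts in the lactate experiment, from 58444 to 175450 in the AZD3965 experiment and from 494520 to 851417 in the technique comparison. The 16 macrophage markers checked (Csf1r, Adgre1, C1qa and others) added up to between 30139 and 123902 CPM (counts scaled to one library total for all cells) in 34 of the cells. In the control cell CTL32 they held 1326 CPM, against 44254 CPM of 14 fibroblast markers, so this library goes against its macrophage label. Fibroblast markers reached 10% of the macrophage markers in 3 further cells, namely the lactate cell Lactic29 (18.5%), the control cell CTL30 (26.9%) and the lactate+AZD cell W14 (58.6%). Most ratios of the 10 genes in comparisons that hold these 4 cells are given with and without them, and other results only where stated.

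The β2 chain was the leading transcript of the set in the summed counts of each group. Itgb2 had a count in 35 of 35 cells, with a lowest value of 5.54 CPM in CTL32, a median of 1666 CPM and a highest value of 3203 CPM in the whole lactate-treated cell Lactic7. To compare genes with each other, counts were divided by the exon length of the gene and scaled to the same sum in every group, which is called the per-length level here. Itgb2 stood first of the 10 genes in all 7 groups, with a per-length level of 1593 in lactate and 1143 in control cells of the lactate experiment. It was 1288 in lactate+AZD and 1070.5 in lactate cells of the AZD3965 experiment, and 2419 in scMeT-seq cells, 2191 in lactate-treated whole cells and 1289 in control whole cells of the technique comparison. Itgb2 made up 48.7 to 64.8% of the summed per-length level of the 10 genes in the 7 groups.

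Itgam, the αM chain, stood second in 6 of the 7 groups, and Itgb1 took that place in lactate+AZD cells. Its per-length level was 689.6 in lactate and 513 in control cells of the lactate experiment, 165 in lactate+AZD and 253 in lactate cells of the AZD3965 experiment, and 605, 491 and 548 in the scMeT-seq, whole lactate-treated and whole control cells. Itgb1 and Fermt3 followed in most groups, with per-length levels from 191 to 333 and from 119 to 295. In lactate+AZD cells Itgax, at 162, stood between Itgam and Fermt3, a place that depended on the gene length used. The remaining alpha chains and Itgb5 lay lower, down to 2.56 for Itgb5 in lactate+AZD cells, and Itga4 was the lowest gene in 5 groups. For most neighbours in this order the ranges of their cells overlapped. Ranges leave aside that both genes were measured in the same cell, and within cells Itgb2 exceeded Itgam in 35 of 35. In the technique comparison the range of Itgb2 lay wholly above that of Itgam in all 3 groups, and in lactate+AZD cells it lay wholly above that of Itgb1. Itgam lay wholly above Itgb1 in lactate cells of the lactate experiment and above Fermt3 in scMeT-seq and whole control cells. Itgb1 lay wholly above Itgax in scMeT-seq and above Itga6 in whole control cells. The ranges of whole control cells rest on 2 cells. With the longest transcript in place of all exons, Itgb2 stayed at rank 1 in all 7 groups, and Fermt3 took rank 3 in all 7. In lactate+AZD cells Fermt3 was then at 179.8, Itgax at 150.4 and Itgam at 138.3. Itga6 moved from rank 8 to rank 5 in lactate cells of the lactate experiment, so the order below Itgb2 depends in part on the length used.

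**Figure D1:**
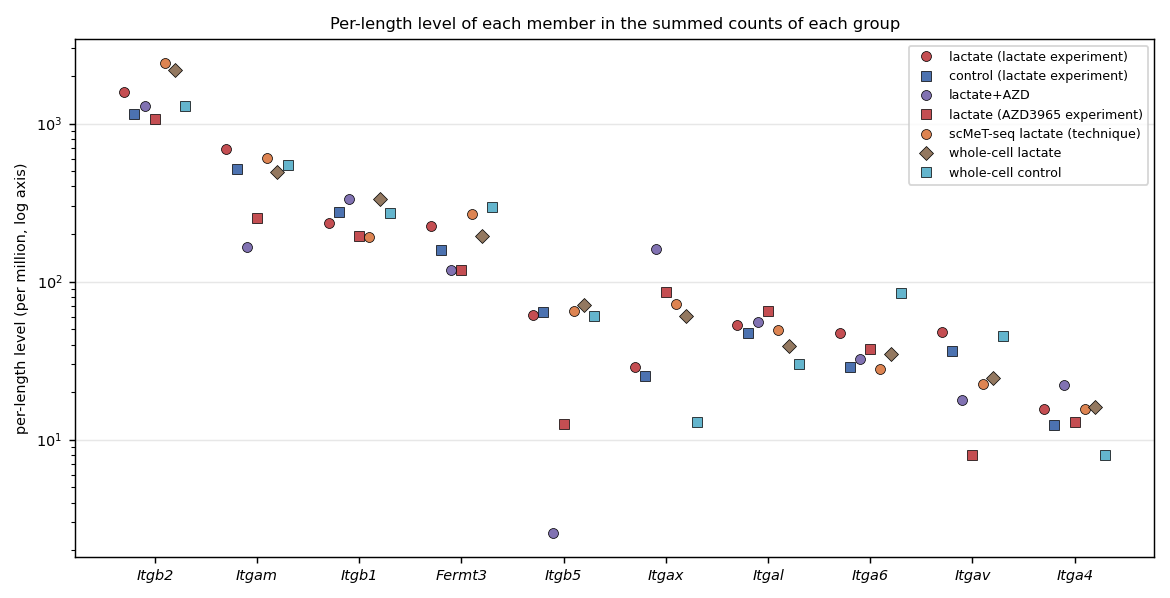
Per-length level (counts per exon base, scaled to one sum for all groups, log axis) of the 10 genes in the summed counts of each of the 7 groups, 1 point per group. Itgb2 is the highest gene in every group, between 1070.5 and 2419, and Itga4 lies between 7.98 and 22.1.

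Among Itgal, Itgam and Itgax, Itgam made up most of the summed per-length level in the lactate and technique tables and less in the AZD3965 table. Its share was 89.3% in lactate and 87.6% in control cells of the lactate experiment, and 83.3, 83.2 and 92.7% in scMeT-seq, whole lactate-treated and whole control cells. In the AZD3965 experiment it was 43.1% in lactate+AZD cells and 62.6% in lactate cells, with Itgax at 42.4% and 21.2%. The cell T10 carried much of this, since without it Itgam held 60.8% and Itgax 25.8% in lactate+AZD cells, while without W10 they held 29.6% and 54.5%. The lactate cells of this experiment moved too. There Itgam held 53.9% without T13 and 71.4% without T11, and Itgax 15.1% without T11 and 25.2% without F18. Itgal, the αL chain of LFA-1, held between 5.13 and 16.2% in the 7 groups. αD, encoded by Itgad, had 0 to 2 counts in each group and is not part of these shares. The tables were counted separately and differ in depth, so these shares are set side by side only.

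**Figure D2:**
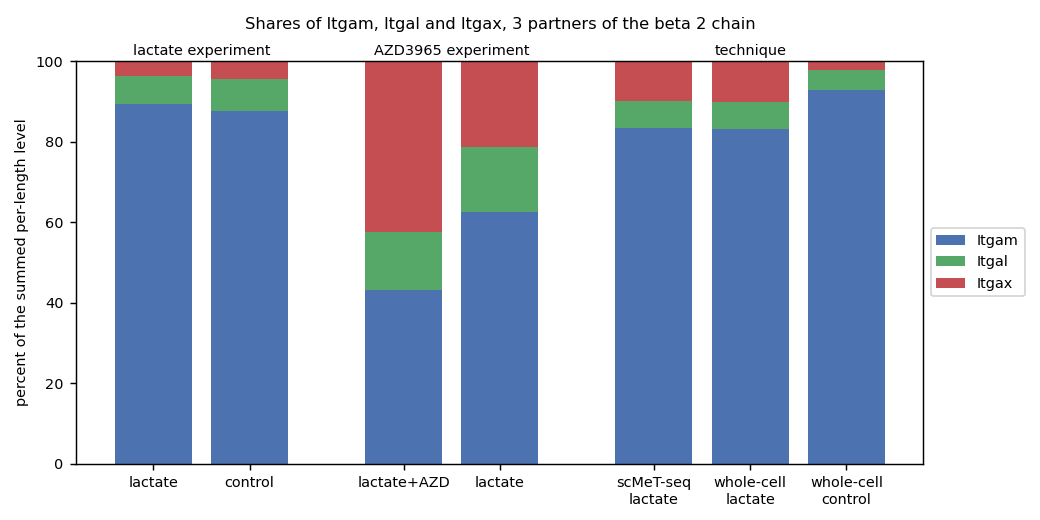
Share of Itgam, Itgal and Itgax in the summed per-length level of these 3 alpha chains, partners of β2, in percent, for each of the 7 groups. Itgam holds 83.2 to 92.7% in the lactate and technique tables, against 43.1% in lactate+AZD and 62.6% in lactate cells of the AZD3965 table, and 60.8% in lactate+AZD cells without T10.

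Partner chains were found together in most cells. Both chains of Mac-1 had a count in 34 of 35 cells, the exception being the lactate+AZD cell F9 with 0 counts of Itgam, which in that library allows up to 33.2 CPM. Both chains of LFA-1 were found in 32 cells and those of complement receptor 4 in 22. The 13 cells that lacked Itgax all had Itgb2. For the β1 receptors, both chains of VLA-6 were found in 33 cells, of VLA-4 in 31 and of αvβ1 in 31, whereas both chains of αvβ5 were found in 25. The per-length level of Itgb2 exceeded that of Itgal, Itgam and Itgax in 35 of 35 cells, and Itgb1 exceeded Itga4 and Itga6 in 35 of 35 and Itgav in 34 of 35. Itgb5 exceeded Itgav in only 19 cells.

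Itgax was found in the fewest cells among the β2 chains. It had counts in 4 of 8 lactate and 3 of 8 control cells, in 4 of 5 lactate+AZD and 3 of 5 lactate cells, in 4 of 4 scMeT-seq and 2 of 3 whole lactate-treated cells, and in 2 of 2 whole control cells. Thinning each cell to the smallest total, 58444 counts, left expected numbers of 3.31 lactate and 2.99 control cells with a count, and 1.45 of the 2 whole control cells. In the other 4 groups the expected number stayed close to the number found. Its highest value was 892 CPM, in the lactate+AZD cell T10.

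**Figure D3:**
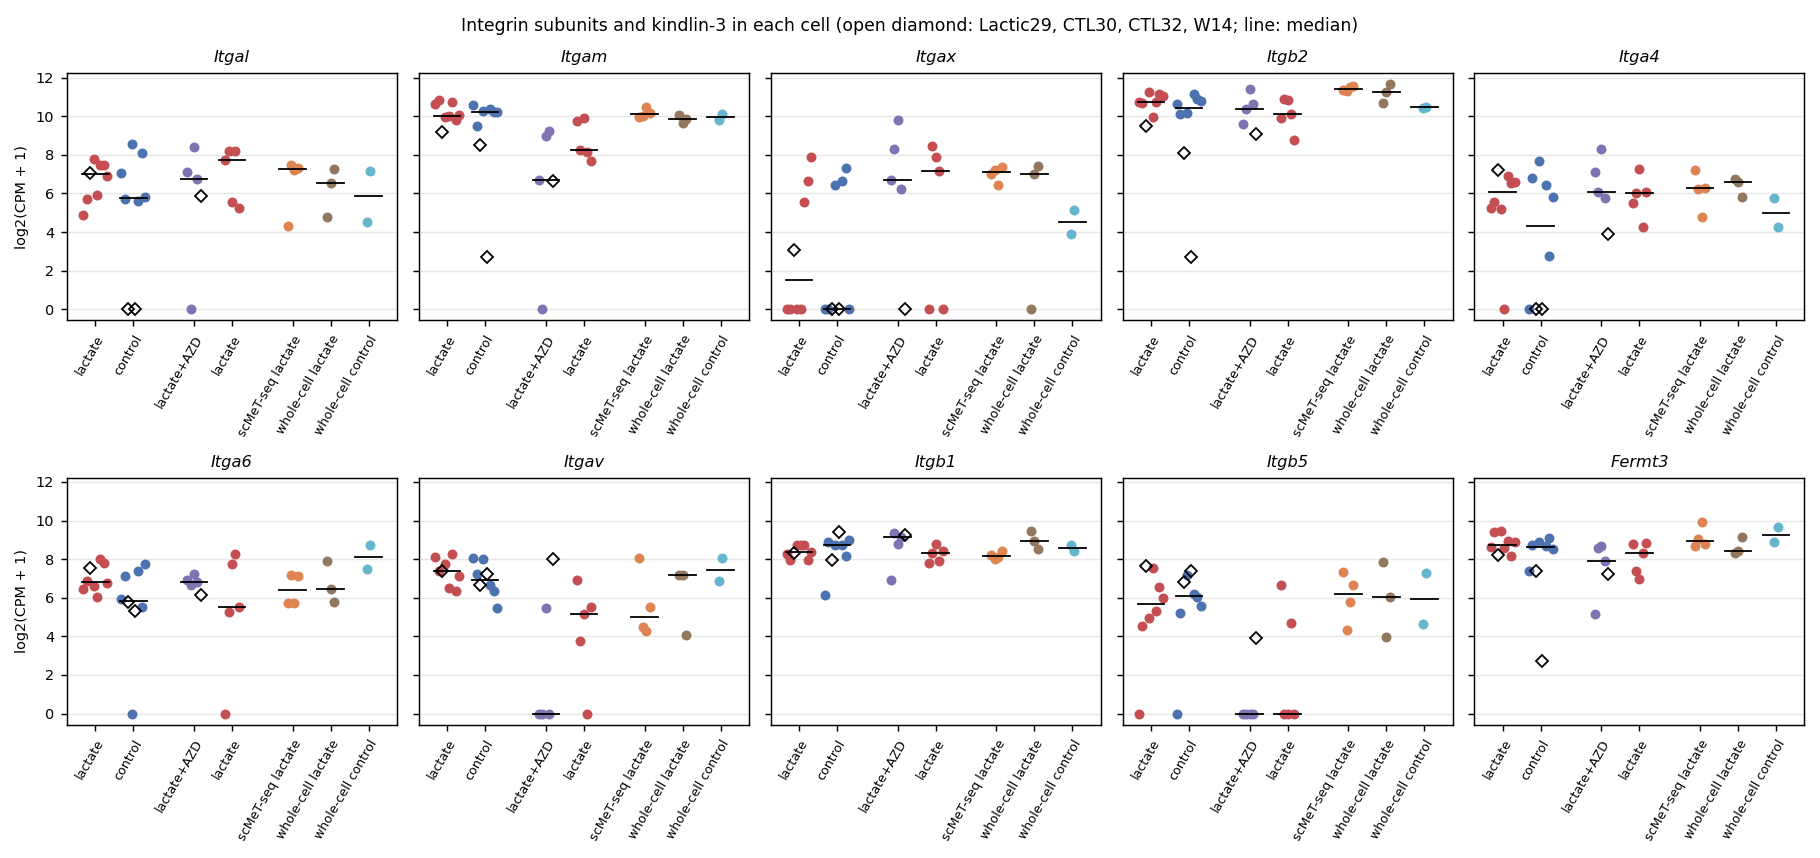
Expression of the 10 genes in each of the 35 cells, as log2(CPM + 1), by group, with a line at the median of each group. Open diamonds are Lactic29, CTL30, CTL32 and W14, the 4 cells with high fibroblast markers, and that of CTL32 shows Itgb2, Itgam and Fermt3 far below and Itgb1 above the other control cells.

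The cell CTL32 lay outside the range of the other control cells for Itgb2, Itgam, Fermt3, Itgb1 and, only narrowly, Itgb5. It had 2 counts (5.54 CPM) of Itgb2, of Itgam and of Fermt3, and 0 counts of Itgal, Itgax and Itga4. These 0 counts do not set it apart, since the other control cells ran from 0 to 374 CPM of Itgal. They ran from 0 to 159 CPM of Itgax, with a median of 0, and from 0 to 206 CPM of Itga4. In the other 7 control cells Itgb2 ran from 268 to 2255 CPM, Itgam from 362 to 1548 CPM and Fermt3 from 163 to 549 CPM, none of them overlapping with CTL32. The widely expressed chains went the other way, with 689 CPM of Itgb1 in CTL32 against 70.5 to 504 CPM in the other control cells, and 163 CPM of Itgb5 against 0 to 146 CPM. Itgav and Itga6, at 147 and 38.8 CPM in CTL32, lay within the range of the other control cells, 43.0 to 267 CPM and 0 to 215 CPM.

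**Figure D4:**
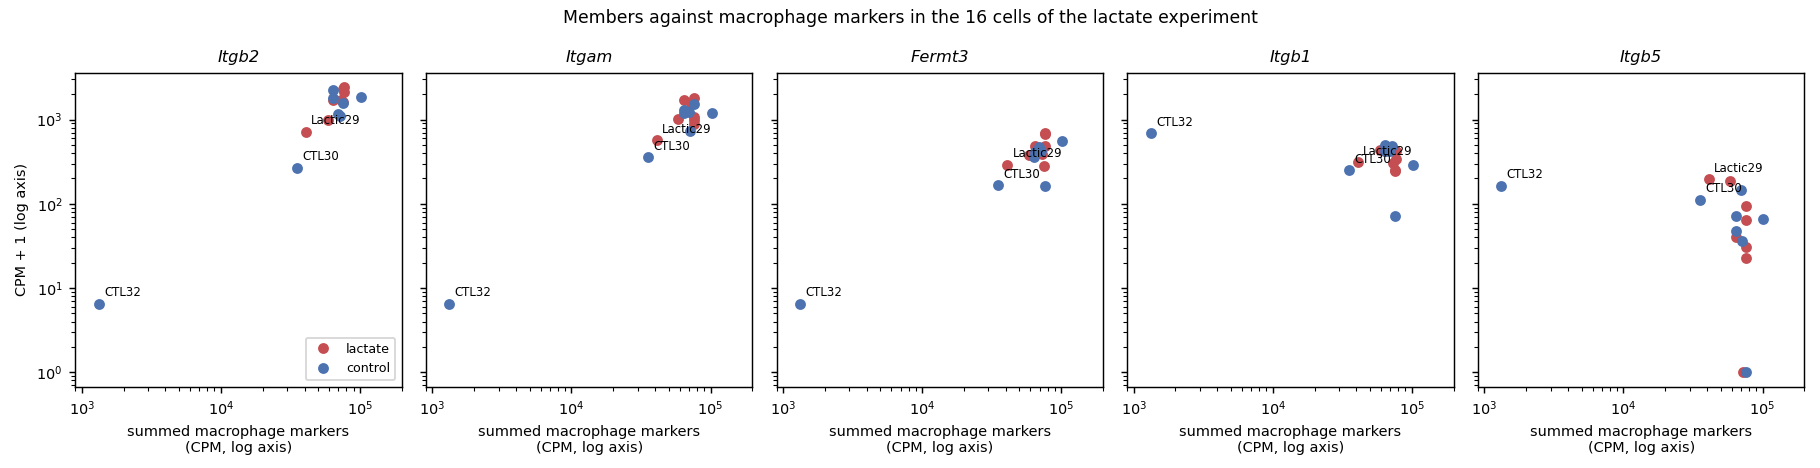
CPM + 1 of Itgb2, Itgam, Fermt3, Itgb1 and Itgb5 against the summed CPM of 16 macrophage markers in the 16 cells of the lactate experiment, both on log axes, 1 point per cell. CTL32, with 1326 CPM of macrophage markers, has the lowest Itgb2, Itgam and Fermt3 (5.54 CPM each) and the highest Itgb1 (689 CPM).

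The promoters of Itgam, Fermt3, Itgb1 and Itgb5 are shown because these genes lay outside the range of the other control cells in CTL32. Itgam and Fermt3 lay below the other control cells, and Itgb1 and, narrowly, Itgb5 above them. Each is the stretch of 250 bases just before the gene's start, from RefSeq on GRCm38.p6, 5′ to 3′ on the gene's strand, at chr7:128062390-128062639 (plus strand) for Itgam, chr19:7019470-7019719 (minus strand) for Fermt3, chr8:128685404-128685653 (plus strand) for Itgb1 and chr16:33829415-33829664 (plus strand) for Itgb5. Capitals mark GAGGAA, a core of the sequence bound by the myeloid factor PU.1, or its reverse complement TTCCTC.
Itgam: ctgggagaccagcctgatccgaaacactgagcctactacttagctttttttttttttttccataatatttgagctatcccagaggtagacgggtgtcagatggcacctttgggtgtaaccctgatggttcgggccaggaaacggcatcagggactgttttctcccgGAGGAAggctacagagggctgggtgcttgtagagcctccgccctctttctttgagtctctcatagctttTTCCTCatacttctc
Fermt3: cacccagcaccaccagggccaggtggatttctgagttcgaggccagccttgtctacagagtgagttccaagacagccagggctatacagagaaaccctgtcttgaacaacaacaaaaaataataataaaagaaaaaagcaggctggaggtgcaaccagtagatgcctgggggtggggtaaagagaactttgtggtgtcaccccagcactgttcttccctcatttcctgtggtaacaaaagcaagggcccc
Itgb1: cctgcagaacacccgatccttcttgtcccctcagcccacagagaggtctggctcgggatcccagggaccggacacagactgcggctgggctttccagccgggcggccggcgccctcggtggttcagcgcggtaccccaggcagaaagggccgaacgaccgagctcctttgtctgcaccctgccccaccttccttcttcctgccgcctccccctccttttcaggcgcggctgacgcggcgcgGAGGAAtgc
Itgb5: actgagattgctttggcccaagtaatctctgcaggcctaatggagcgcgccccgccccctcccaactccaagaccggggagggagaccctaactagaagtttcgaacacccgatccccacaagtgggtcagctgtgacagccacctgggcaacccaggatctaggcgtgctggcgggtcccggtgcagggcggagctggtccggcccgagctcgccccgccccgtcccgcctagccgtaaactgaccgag

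The word occurred at 2 places upstream of Itgam, starting at 84 and 15 bases before the gene's start, at 1 place upstream of Itgb1, starting 9 bases before it, and at none upstream of Fermt3 and Itgb5. It is common, with a match in 23.3% of the 32851 promoters of the same length, so a match is a description of the letters only. The promoters shown differed more in base composition. G and C made up 49.6% of the bases upstream of Itgam and 50% upstream of Fermt3, with 6 and 1 CpG dinucleotides, against 68.0% and 65.2% with 21 and 18 CpG dinucleotides upstream of Itgb1 and Itgb5. Among the promoters not shown, G and C made up 50% upstream of Itgax and 64% upstream of Itga4, both at 0 counts in CTL32. They made up 64.4% upstream of Itgav, and the 3 stretches held 5, 6 and 18 CpG dinucleotides. Base composition thus did not part all genes by their counts in CTL32. The median over all promoters was 52.4% with 6 CpG dinucleotides. Of the 10 genes, 7 matched a promoter in the table, and 3 of these 7 held the word, Itgam, Itgav and Itgb1.

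The first comparison asked how lactate affected these genes in scMeT-seq cells. No member reached a 2-fold ratio between lactate and control cells, 0 of 10, while 15.1% of the 11506 genes compared were 2-fold higher and 22.0% 2-fold lower, 37.2% in either direction. The minimum of 10 counts admits genes with far fewer counts than most members, here and in the later comparisons. Shares among genes of like depth were not computed. The median log2 ratio of the 10 genes was 0.35, against −0.09 for all genes compared. Without Lactic29, CTL30 and CTL32 it was 0.05, against 0.01 for all genes compared, and again 0 of 10 members reached 2-fold while 38.2% of 10477 genes did. The cells of the groups overlapped for all 10 members, as they did for every gene compared, since 0.00% were without overlap.

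The β2 chains lay close together in the 2 groups. Itgb2 ran from 717 to 2407 CPM with a median of 1724 in lactate cells, and from 5.54 to 2255 CPM with a median of 1373 in control cells, overlapping over nearly the whole range. Its summed level was 1709 CPM (95% counting interval 1663 to 1756) in lactate and 1244 CPM (1204 to 1285) in control cells, a log2 ratio of 0.46 (0.40 to 0.52), which was 0.20 without the 3 cells. These intervals come from the counts alone, and amplified copies of 1 molecule are not independent. Itgam ran from 571 to 1801 CPM with a median of 1046 in lactate cells, and from 5.54 to 1548 CPM with a median of 1192 in control cells. The median of Itgam was thus lower in lactate cells, while the ratio of its summed counts was 0.41 on the log2 scale, and 0.17 without the 3 cells.

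Itgal and Itgax stood at log2 ratios of 0.15 (−0.07 to 0.37) and 0.17 (−0.18 to 0.52), with intervals that include 0. Without the 3 cells they stood at −0.30 (−0.53 to −0.07) and −0.08 (−0.43 to 0.28), so that both changed sign and the interval of Itgal no longer included 0. Itgal had counts in 8 of 8 lactate cells, at 28.01 to 222 CPM, and in 6 of 8 control cells, with a highest value of 374 CPM. The 2 control cells without Itgal were CTL30 and CTL32. Itgax rested on few cells, with 82 of its 149 counts in the lactate group in Lactic34, and its log2 ratio was −0.81 without that cell and 0.79 without CTL34. That of Itgal was 0.73 without CTL31.

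Fermt3, the adaptor of the β2 chain, had a log2 ratio of 0.49 (0.37 to 0.61), with 282 to 699.5 CPM in lactate cells and 5.54 to 549 CPM in control cells. Without the 3 cells it was 0.25. The largest ratio of the set belonged to Itga6, the laminin-binding α6 chain, with a median of 112 CPM and a range of 65.7 to 259 CPM in lactate cells, against a median of 56.2 CPM and a range of 0 to 215 CPM in control cells. The log2 ratio of Itga6 was 0.71 (0.49 to 0.93) and 0.43 without the 3 cells. Itga4 and Itgav stood at 0.31 and 0.38, and at −0.35 and 0.35 without the 3 cells, so that of Itga4 changed its sign, as did those of Itgal and Itgax.

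The beta chains that non-leukocytes also make stood a little lower or level. Itgb1 ran from 247 to 429 CPM with a median of 324 in lactate cells, and from 70.5 to 689 CPM with a median of 421 in control cells, both extremes being set by controls. The log2 ratio of Itgb1 was −0.25 (−0.37 to −0.13), and −0.16 without the 3 cells. Itgb5 stood at −0.09 (−0.36 to 0.18), with its 2 highest lactate cells, Lactic29 and Lactic31, at 196 and 187 CPM. Beside these ratios, 11 of the 14 fibroblast markers had counts in lactate cells, with a summed range of 0 to 7574 CPM and Lum, Pdgfra and Dpt at 0, and 12 of 14 in control cells, with a range of 0 to 44254 CPM and Lum and Dpt at 0. The remaining 13 cells held 0 to 1046 CPM of these markers, whose part in the ratios was not tested.

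**Figure D5:**
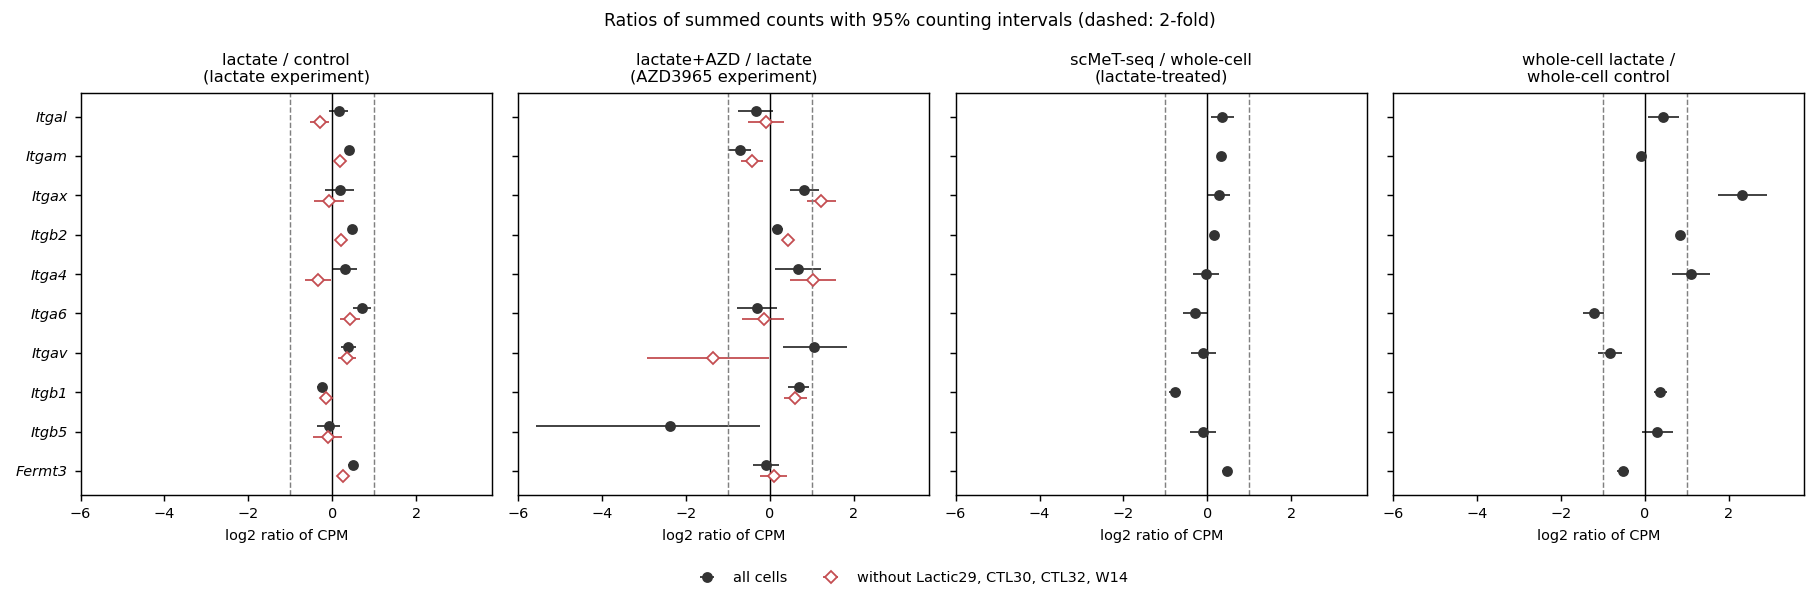
log2 ratio of the summed CPM of each gene in the 4 comparisons, with exact 95% counting intervals, for all cells (filled circles) and without Lactic29, CTL30, CTL32 and W14 (open diamonds, not drawn for Itgb5 in the AZD3965 experiment, where lactate+AZD cells then have 0 counts). Dashed lines mark 2-fold, which 2 members pass for lactate+AZD over lactate, 3 for whole lactate-treated over whole control cells and 0 in the other comparisons.

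The second comparison asked what AZD3965 added to lactate. Of the 10 genes, Itgav was 2-fold higher and Itgb5 2-fold lower in lactate+AZD than in lactate cells. Among the 8764 genes compared 24.9% were 2-fold higher and 15.6% 2-fold lower, 40.5% in either direction. Both members were carried by very few counts. The median log2 ratio was 0.04 for the 10 genes and 0.17 for all genes compared. The cells of both groups overlapped for each of the 10 members, while 0.377% of the genes compared were without overlap. TMM scaling moved every log2 ratio by −0.16, which left Itgav at 0.90, under 2-fold.

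Itgav had 36 counts (255 CPM) in W14, 6 counts (42.5 CPM) in T10 and 0 counts in F8, F9 and W10 of the lactate+AZD group. In the lactate cells it had 122, 45.0, 34.2, 12.6 and 0 CPM, from 11, 6, 6, 2 and 0 counts. Its log2 ratio of 1.06 (0.31 to 1.83) therefore rested on W14, the cell with 17651 CPM of fibroblast markers, and was −1.35 (−2.92 to −0.03) without it. Itgb5, the partner of αv, had 2 counts in lactate+AZD cells, both in W14, and 13 counts in lactate cells, 9 in F18 and 4 in W20. Its log2 ratio of −2.39 had an interval of −5.58 to −0.25, and without W14 the lactate+AZD group had 0 counts.

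Of the β2 chains, Itgb2 was at 2691, 1602, 1349.9, 787 and 545 CPM in lactate+AZD cells and at 1910.0, 1824, 1116, 972 and 435 CPM in lactate cells. These values overlapped almost fully, and the log2 ratio was 0.17 (0.04 to 0.31), and −0.26 without T10. Itgam was at 608, 503, 103, 99.002 and 0 CPM in lactate+AZD cells, against 969, 862, 308, 284 and 202 CPM in lactate cells, with the 3 lowest of the 10 cells all in the lactate+AZD group. For Itgam the log2 ratio was −0.71 (−0.98 to −0.45), and leaving out a single cell moved it between −1.28 (without W10) and −0.23 (without T13). Itgal stood at −0.33 (−0.76 to 0.08), and at −1.25 without T10.

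Itgax was at 892, 309.8, 103, 73.4 and 0 CPM in lactate+AZD cells and at 346, 239, 142, 0 and 0 CPM in lactate cells. T10 held 126 of its 171 counts in the lactate+AZD group. The log2 ratio was 0.82 (0.48 to 1.17), 1.22 without W14, 1.35 without T11 and −0.70 without T10. Of the 7 dendritic cell markers, 3 had counts in lactate+AZD cells, with a summed range of 0 to 387 CPM and Flt3, Clec9a, Batf3 and Ccr7 at 0, and 2 in lactate cells, with a range of 0 to 122 CPM and Flt3, Zbtb46, Xcr1, Batf3 and Ccr7 at 0. They summed to 92.1 CPM in T10. T10 also carried Itga4, whose log2 ratio was 0.67 (0.13 to 1.22), 1.03 without W14, 1.29 without T13 and −0.43 without T10. With W14 left out 4 members passed 2-fold, Itgax and Itga4 higher and Itgav and Itgb5 lower, against 42.1% of 8153 genes in either direction.

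Itgb1 was at 664, 601, 574, 432 and 119.8 CPM in lactate+AZD cells and at 433, 337, 314, 241 and 221 CPM in lactate cells. Of the 5 lactate+AZD cells, 3 lay above all lactate cells and F8 lay below them all. The log2 ratio was 0.69 (0.44 to 0.94) and stayed between 0.59 and 0.87 whichever single cell was left out, 0.61 without W14. Fermt3 and Itga6 stood at −0.10 (−0.41 to 0.22) and −0.30 (−0.78 to 0.16), and turned to 0.13 without W5 and to 0.33 without W20. In this experiment 11 of 14 fibroblast markers had counts in lactate+AZD cells, all in W14, with Lum, Pdgfrb and Dpt at 0. In lactate cells 7 of 14 had counts, at 6729 CPM in W5, 22.8 CPM in T13 and 0 in the others. B cell markers (4 of 7, with Ms4a1, Pax5 and Vpreb3 at 0) summed to 434 CPM in W10 and 70.7 CPM in W14, and to 0 in the other 8 cells. The part of W5 and W10 in the members' ratios through these markers was not tested.

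The third comparison asked whether drawing off cytoplasm altered the transcripts of lactate-treated cells. Of the 10 genes, 0 reached a 2-fold ratio between scMeT-seq and whole cells, while 21.7% of 9723 genes were 2-fold higher and 20.6% 2-fold lower, 42.3% in either direction. The median log2 ratio was 0.06 for the members and 0.02 for all genes. Itgb1 was the 1 member whose groups did not overlap, beside 4.77% of the genes compared. It was at 337, 297, 280 and 256 CPM in the scMeT-seq cells and at 706, 491 and 368 CPM in the whole cells, each scMeT-seq cell lying below each whole cell. Its log2 ratio was −0.78 (−0.93 to −0.64), and between −0.99 and −0.54 with any single cell left out.

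The summed levels of the β2 chains were slightly higher in scMeT-seq cells, a direction that rested on the whole cell Lactic5 for all but Itgam. Itgb2 was at 3022, 2906, 2639 and 2557 CPM in scMeT-seq cells and at 3203, 2434 and 1666 CPM in whole cells, so that the scMeT-seq cells were closer together and lay inside the range of the whole cells. Its log2 ratio was 0.16 (0.11 to 0.22), and −0.02 without Lactic5. Itgam was at 1416, 1142, 1041 and 996 CPM in scMeT-seq cells, against 1074, 925 and 797 CPM in whole cells, a log2 ratio of 0.32 (0.23 to 0.41). Fermt3 was at 971, 535, 433 and 413 CPM in scMeT-seq cells and at 574, 343 and 324 CPM in whole cells, a log2 ratio of 0.47 (0.34 to 0.60) that was 0.11 without Lactic16. Itgal and Itgax stood at 0.36 and 0.27, at −0.005 and −0.22 without Lactic5, in which Itgax was at 0 CPM, and at 0.96 and 0.87 without Lactic7.

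The alpha chains of the β1 receptors and Itgb5 lay between −0.29 for Itga6 and −0.03 for Itga4. Itga6 turned to 0.46 without Lactic5, and Itga4 ran from −0.51 without Lactic13 to 0.26 without Lactic16. Itgav was uneven, at 267 CPM in the scMeT-seq cell Lactic13 and at 45.7, 21.2 and 18.2 CPM in the other scMeT-seq cells, against 146, 145 and 15.7 CPM in the whole cells. The log2 ratio of Itgav was −0.10 with Lactic13 and −1.74 without it. Itgb5 stood at −0.11, and at 1.12 without Lactic5, which had 231 CPM of it. Fibroblast markers summed to 1.57 to 67.8 CPM in scMeT-seq and 39.3 to 245 CPM in whole lactate-treated cells, with 5 and 7 of 14 detected and Col6a1, Col6a2, Lum and Pdgfra at 0 in both groups.

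The fourth comparison set lactate against control in whole cells, and it shares its 3 lactate-treated cells with the third. Of the 10 genes, Itgax and Itga4 were 2-fold higher and Itga6 2-fold lower in lactate-treated cells, while 15.2% of 9732 genes were 2-fold higher and 27.6% 2-fold lower, 42.8% in either direction. The median log2 ratio was 0.33 for the members and −0.20 for all genes, and TMM scaling moved each ratio by 0.19. Itgb2 and Itga4 were without overlap, 2 of 10 members, beside 21.4% of the genes compared.

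Itgax was at 173, 129 and 0 CPM in lactate-treated whole cells and at 33.9 and 14.1 CPM in control whole cells. The cell Lactic5, with 0 counts of Itgax, lay below both control cells. Its log2 ratio was 2.30 (1.75 to 2.90), and between 1.68 and 2.94 when either control cell was left out. Itga4 was at 107, 96.3 and 55.1 CPM in lactate-treated cells and at 54.0 and 17.8 CPM in control cells, a log2 ratio of 1.09 (0.64 to 1.56) that was 0.64 without CTL8 and 2.24 without CTL4. Itgb2 was at 3203, 2434 and 1666 CPM in lactate-treated cells and at 1421 and 1385 CPM in control cells. Each lactate-treated cell was above both controls, with a log2 ratio of 0.84 (0.76 to 0.91), and 1.02 with TMM scaling.

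Itgam showed no such difference, at 1074, 925 and 797 CPM in lactate-treated and 1105 and 896 CPM in control whole cells, a log2 ratio of −0.09 (−0.19 to 0.02). The per-length level of Itgb2 was 4.46 times that of Itgam in lactate-treated and 2.35 times in control whole cells, and in the lactate experiment 2.31 times in lactate and 2.23 times in control cells. Itga6 was at 239, 86.5 and 53.5 CPM in lactate-treated cells and at 421 and 176 CPM in control cells, a log2 ratio of −1.22 (−1.47 to −0.97) that was −0.58 without CTL8 and −1.97 without Lactic5. In the lactate experiment the same contrast gave 0.71 for Itga6, and the difference between the experiments was not tested. Itgav and Fermt3 stood at −0.83 and −0.52 and Itgb1, Itgb5 and Itgal at 0.37, 0.30 and 0.44, all with cells that overlapped. Single cells turned the sign of Itgal, which was −0.59 without CTL4 and 2.10 without CTL8, and of Itgb5, which was −0.93 without Lactic5 and 2.002 without CTL8. Itgav was −1.43 without CTL4 and −0.23 without CTL8.

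The ligands and other genes of the pathway were compared in the same way, and their counts are to be read beside the 37.2% of all genes past 2-fold in the lactate experiment. Of 22 integrin ligands 16 were compared between lactate and control cells, of which 1 was 2-fold higher and 8 were 2-fold lower, with a median log2 ratio of −0.75. Without the 3 cells, 11 were compared, of which 1 was higher and 4 lower, with a median of 0.05. Icam1, the ligand of LFA-1 and Mac-1, was at 101.98 CPM in lactate and 36.7 CPM in control cells, a log2 ratio of 1.47, and 1.13 without the 3 cells. Spp1, which encodes osteopontin, a ligand of αv integrins, was at 246 CPM in lactate and 1605 CPM in control cells, a log2 ratio of −2.71, and −2.68 without the 3 cells. Mfge8, a bridge from apoptotic cells to αv integrins, stood at −1.17, and at −1.20 without them.

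Of 25 genes of adhesion signalling 24 were compared in this comparison, with 1 2-fold higher and 4 2-fold lower, and without the 3 cells 0 of 23 passed 2-fold. Vcl and Zyx, which encode vinculin and zyxin of focal contacts, stood at −1.99 and −1.45, and at 0.05 and −0.61 without the 3 cells. Syk, a kinase downstream of β2 integrins, stood at 1.27 and 0.89. Of 15 activation adaptors 14 were compared, with 1 higher and 2 lower, and 1 higher and 1 lower without the 3 cells. Rap1b, a small GTPase that drives integrin activation, was at 272 CPM in lactate and 126 CPM in control cells, a log2 ratio of 1.11, and 1.24 without the 3 cells. Tln2 stood at −1.75 with and 0.64 without them. Among 17 other integrin subunits 11 were compared, with 4 higher and 5 lower and a median log2 ratio of −0.94, and without the 3 cells 4 were higher and 2 lower of 9, with a median of 0.98. Itga5, the fibronectin receptor chain, stood at −1.23, and at −0.46 without them. Of the 10 tetraspanins and lateral partners 0 were 2-fold higher and 1 was lower, and 1 was higher and 1 lower without the 3 cells.

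In the AZD3965 experiment Spp1 and Mfge8 were lower with AZD3965, at 1086 and 131 CPM in lactate+AZD cells and at 7709 and 779.8 CPM in lactate cells. Their log2 ratios were −2.83 and −2.58, and −2.54 and −2.75 without W14. These ratios come from summed counts, and no cell other than W14 was left out for them, so they may rest on few cells. Of 22 ligands 14 were compared there, with 6 higher and 4 lower, and without W14 0 were higher and 5 lower of 10. Itga5 stood at −2.18, and at −2.83 without W14, and Cd47, known as integrin-associated protein, at 0.82 and 0.61. Of 12 adaptors compared 0 were higher and 1 was lower, and of 24 signalling genes 5 were higher and 3 lower, beside 40.5% of all genes past 2-fold. Without W14, 0 were higher and 0 lower of 11 adaptors, and 4 higher and 4 lower of 23 signalling genes, beside 42.1% of all genes.

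In the technique comparison, where 42.3% of all genes were past 2-fold between scMeT-seq and whole cells, the lists held 1 higher and 0 lower of 13 adaptors, 3 and 0 of 22 signalling genes, 3 and 0 of 11 ligands, 3 and 2 of 6 other subunits, and 0 and 1 of 10 tetraspanins and partners. Zyx and Itga5 were higher in each of the 4 scMeT-seq than in each of the 3 whole cells, with log2 ratios of 2.33 and 1.87. Between lactate-treated and control whole cells, beside 42.8% of all genes, 2 of 9 ligands compared were higher and 2 lower, 1 and 5 of 22 signalling genes, 0 and 3 of 13 adaptors, 2 and 3 of 6 other subunits, and 2 and 0 of 10 tetraspanins and partners. Spp1 and Mfge8 were higher under lactate, at 1858 and 865 CPM against 55.9 and 89.2 CPM in controls, log2 ratios of 5.05 and 3.28, whereas the log2 ratios of both were negative in the lactate experiment. Spp1 had counts in 2 of the 3 lactate-treated cells, and the difference between the experiments was not tested. Itgb8, a partner of αv, had 0 counts in the 3 lactate-treated and 56 counts in the 2 control whole cells, which with a floor of 3 counts over the group is a log2 ratio of at most −4.53. Lyn, a Src family kinase, stood at −1.37 and Fgr, another one, at 1.47, each without overlap of the cells.

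Some counts of the members can include reads of neighbouring genes, because the sources used here do not state that counting used the strand. In GENCODE M21 on GRCm38, Itgb2 lies on chromosome 10 (77530252 to 77565708) and Itgam, Itgax and Itgal lie on chromosome 7, with Itgam (128062640 to 128118491) next to Itgax (128129547 to 128150657). Itgam overlaps the model Gm49368 on its own strand. Itga6 overlaps Gm13662 and Gm13663 on its own strand and Gm13739 and Gm17250 on the other. Itgav overlaps Dnmt3l-ps1 and Gm13684 on the other strand. Fermt3 (chromosome 19, 6998958 to 7019469) overlaps Trpt1 and Itga4 (chromosome 2, 79255426 to 79333123) overlaps Cerkl, each on the other strand.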

How the data were processed

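SMART-seq2 libraries of 35 single macrophages were used. Per its methods, the study cleaned reads with fastp, mapped them with HISAT2 to the mm10 genome and counted per gene with StringTie, and the authors deposited raw counts, in 1 table per experiment. Whether counting used the strand is not given in the sources used here. Totals per cell ran from 58444 to 851417 counts.

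From the deposited counts, CPM, per-length levels and log2 ratios were computed in Python 3.11.15 (numpy 2.4.6, pandas 2.3.3, scipy 1.17.1, and matplotlib 3.10.9 for figures). TMM factors came from edgeR 4.0.16 in R 4.3.3, which served for scaling only. Each group's counts were added up over its cells. CPM of a group carry exact Poisson 95% intervals and log2 ratios exact conditional binomial ones. They cover counting error only, and the calculation was tested on simulated data. A gene was compared when both groups together held at least 10 counts, and a group without counts was given 3 counts as its floor. Exon lengths came from GENCODE M21 and covered 32158 of 32285 genes, and 33872 of 35624 symbols (98.9% of counts) in the AZD3965 table. No pair of cells had identical counts within a table.

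The 10 members and the gene lists were chosen with earlier results of these data known. List genes were named from the 3 largest log2 ratios per list and comparison among genes with 50 counts or more, found in at least 50% of the cells of the higher group and with no cell above 80% of that group. Alternatives were TMM, the mean and median of per-cell CPM, a minimum of 100 counts and none, each cell left out, cells with fibroblast or mesothelial markers at 10% or more of their macrophage markers left out, cells paired by number, the longest transcript and a detection limit of 5 counts. Metabolomes were not analysed here.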

Additional observations from a re-analysis of the deposited data

Results flagged for a closer look

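Of 50 sets of a gene and a group with 4 to 8 cells, 5 held 1 cell whose distance to the nearest other cell was large against the whole range. The limit used flags about 1 in 20 sets only where values are normally distributed. CPM of single cells are skewed and hold many values of 0, so the rate by chance is not known here. A cell with the only counts of its group is always flagged. Itgax was at 235 CPM in the lactate cell Lactic34, against 100.1 CPM in the next cell of its group. Itgav was at 255 CPM in the lactate+AZD cell W14, against 42.5 CPM in the next, and Itgb5 was at 14.1 CPM in the same cell, from 2 counts, against 0 in the other 4. Itgb5 was at 99.4 CPM in the lactate cell F18 of the AZD3965 experiment, from 9 counts, against 24.7 CPM in the next. Itgav was at 267 CPM in the scMeT-seq cell Lactic13 of the technique comparison, against 45.7 CPM in the next. In W14 fibroblast markers summed to 17651 CPM, whereas Lactic13 had 1.57 CPM of them, and their part in the Itgav level of W14 was not tested.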

How the results depend on the processing

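The number of members past 2-fold depended on single cells and on how cells were averaged. Between lactate and control cells it was 0 in each run that left out 1 cell, but 3 with the median of per-cell CPM. Both groups hold some of the same numbers in the labels, which only name cells. With 7 pairs formed by number, on the log2(CPM + 1) scale, 6 members passed 2-fold, all higher in lactate cells, with CTL30 and CTL32 among the pairs. The mean over pairs equals the difference of the group means on this scale. Pairing thus did nothing beyond leaving out Lactic29 and CTL35, and the pairs are not replicates. Between lactate+AZD and lactate cells it was 2, and 1 with TMM, 0 with at least 100 counts, 4 without W14, and 1 to 4 with any 1 cell left out. The log2 ratio of Itgav there was −5.14 with the median, and −1.35 (without W14) to 1.70 (without F18) with 1 cell left out. Itgam and Itga6 also passed 2-fold with the median. The median of Itgam was lower in lactate+AZD cells (103 against 308 CPM) and that of Itga6 higher (113 against 45.0 CPM). Between scMeT-seq and whole cells the number was 0, 1 with the median, and 0 to 1 with 1 cell left out. Between lactate-treated and control whole cells it was 3, and 2 to 4 with 1 cell left out, and with TMM Itgb2 passed 2-fold as well. With the longest transcript in place of all exons, Itgb2 held 59.4% of the members' level in scMeT-seq cells, against 64.8%, and 42.0% in whole control cells, against 48.7%. Of the 350 values of a gene in a cell, 314 had a count and 302 had 5 or more, and with 5 counts of each partner, a limit chosen after seeing the data, both chains of a heterodimer were found in 21 (Itgax with Itgb2) to 33 cells. Of 617 log2 ratios of single members under alternatives, 3 (Itgav in the AZD3965 experiment) turned the direction of a member past 2-fold, 157 others lay outside the first 95% interval and 457 inside it. The runs that changed only the minimum count left each ratio as it was, so they fall inside by construction and the 457 does not measure stability. Leaving out W14 was counted both as a single cell left out and under the marker limit. The shares of the alpha chains with each cell left out were also computed after seeing the data. No cell of the technique comparison reached the marker limit, so that alternative was not run there. Depth limits Itgb5, Itgav and Itga4 most in the AZD3965 experiment, where 3 counts are 17.1 to 51.3 CPM per cell.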

Other observations

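The genes whose CPM followed Itgam most closely over the 16 cells of the lactate experiment were Tcirg1, a subunit of the vacuolar proton pump (Spearman's rho 0.83), Arhgap25 (0.80), Adap2 (0.77), Adam17 (0.77) and Slc37a2 (0.76), among 5221 genes with a count in at least 12 cells. For Itgb2 they were Man2b2, a lysosomal mannosidase (0.83), Hmox1, which encodes heme oxygenase 1 (0.83), Prr13 (0.83), the leukocyte tetraspanin Cd53 (0.81) and Itm2b (0.80). These points share the low values of CTL32, CTL30 and Lactic29 and the depth of each library, and they are descriptions with no test.

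Itgax and Itgb2 followed each other across cells, with a Spearman's rho of 0.80 over the 9 cells of the technique comparison and 0.85 over the 10 cells of the AZD3965 experiment (0.82 over 9 cells without W14). Itgam and Itgb2 did so less, with 0.27 and 0.50 in the same tables, and with 0.38 over the 16 cells of the lactate experiment, which was −0.16 over the 13 cells left without Lactic29, CTL30 and CTL32. Itga4 and Fermt3 ran in opposite directions over the 9 cells of the technique comparison, with −0.88, and with −0.03 in the AZD3965 and 0.34 in the lactate experiment. The values 0.80, 0.85 and −0.88 were picked as extremes among all pairs of members computed in their experiment. The cells pool treatments and techniques, and T10 held the highest Itgax and Itgb2 of the AZD3965 experiment. No correlation of Itgax was computed in the lactate experiment, since only 4 of 8 lactate and 3 of 8 control cells had counts.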
